A study of Homo sapiens with 6 samples.

Results

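Long intergenic RNAs are transcripts of long non-coding genes that lie between protein-coding genes, and many carry a LINC symbol, a serial name given where no function was known. The 123 described here are the rows of the deposited expression table whose symbol is LINC followed only by digits and whose mean over the 6 libraries was at least 1 TPM, a level scaled to transcript length and to the library total. The members were thus selected on their mean level over both groups and not on the difference between groups. They are 6.34% of 1939 such rows among 59050 rows in all. Of the other 1816, 993 were listed at 0 in every library and 823 had a value below the threshold.

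The RNA came from HFF, human foreskin fibroblasts at about passage 18 that had been infected with the vector pLNC ER:RAS (G12V) and selected with neomycin at 200 µg/ml. ER:RAS fuses a constantly active mutant H-RAS to the part of the oestrogen receptor that binds its ligand. The drug 4-hydroxytamoxifen (4-OHT, 100 nM) switches the fusion on, and cells in oncogene-induced senescence were collected a week later. The 3 libraries labelled 4-OHT were compared with 3 labelled DMSO. Both groups carried the construct, no group without it was analysed here, and the labels do not state that replicates are separate cultures. The p-values therefore reflect the spread among these libraries alone, which may be technical.

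Non-coding RNAs of this class act in several known ways. Some stay near their own locus and alter transcription of a neighbour, and some bind proteins or microRNAs elsewhere in the cell. For many no function is known. They are as a rule less abundant than messenger RNAs and more restricted to particular cell types and states. In fibroblasts that senesce after RAS activation, the cells stop dividing, while ERK signalling and its AP-1 transcription factors, dimers of the FOS and JUN families, stay active.

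The libraries each summed to between 998367 and 998843 TPM, and read depth is unknown for this unit. All 11 fibroblast markers looked up, such as COL1A1 and PDGFRB, stood above 10 TPM. Marker lists of keratinocytes, endothelium, immune cells, melanocytes and the HEK293 packaging cells each held at most 2 genes above 1 TPM. Of the fibroblast markers 3 were called higher and 7 lower in 4-OHT, with summed levels of 20752 to 21281 TPM against 21993 to 22695 in DMSO. The keratinocyte list summed to 32.8 to 43.2 TPM in 4-OHT against 37.5 to 52.5 in DMSO. KRT10, its only gene above 10 TPM, made up most of this sum, while EPCAM was above 1 TPM and KRT1 at 0. The endothelial list summed to 1.38 to 1.82 against 2.47 to 2.57 TPM. The melanocyte list summed to 6.51 to 6.82 against 8.50 to 9.55 TPM, with MITF and PMEL above 1 TPM and TYR and DCT at 0. In each of these lists 1 gene was called lower. The immune list summed to 4.34 to 9.85 against 2.29 to 4.46 TPM, with 1 gene called higher. Among the HEK293 genes, NEFM, a neurofilament gene, read 8.68, 7.98 and 8.59 TPM in 4-OHT and 0.0883, 0.423 and 0.388 in DMSO, and PAX2, SALL4 and LIN28B of the same list were below 1 TPM. The part of these markers in the results below was not tested. As a check on the state of the cells, CDKN2B, which encodes the inhibitor p15, was 24.3-fold higher in 4-OHT, and the proliferation gene MKI67 was 6.59-fold lower. HRAS stood at 1281 ± 51.1 against 935 ± 24.7 TPM (SD, n = 3).

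The promoters of the members with the largest changes are shown first, because position and sequence are the only features known for most of these genes. RefSeq promoters (GRCh38.p14), from 250 bases before to 50 bases after the annotated start, were found for 93 of the 123. Those of the 3 largest increases and the 3 largest decreases held in that table are printed 5′ to 3′, increases first. Capitals mark a match to TGANTCA, the letters searched here for AP-1, where N stands for any base.
LINC01705, chr1:222059344-222059643, minus strand: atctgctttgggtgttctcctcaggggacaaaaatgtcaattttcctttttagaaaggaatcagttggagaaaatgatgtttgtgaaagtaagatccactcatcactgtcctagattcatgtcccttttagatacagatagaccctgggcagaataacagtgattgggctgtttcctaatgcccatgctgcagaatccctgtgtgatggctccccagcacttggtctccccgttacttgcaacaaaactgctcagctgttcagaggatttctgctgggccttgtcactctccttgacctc
LINC00973, chr3:98914316-98914615, plus strand: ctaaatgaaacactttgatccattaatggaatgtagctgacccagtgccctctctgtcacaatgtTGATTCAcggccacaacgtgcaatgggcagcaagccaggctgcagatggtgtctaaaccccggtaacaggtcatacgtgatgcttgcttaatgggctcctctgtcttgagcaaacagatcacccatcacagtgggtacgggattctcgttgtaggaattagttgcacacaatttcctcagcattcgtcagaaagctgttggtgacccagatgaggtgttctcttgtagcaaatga
LINC02392, chr12:90293068-90293367, plus strand: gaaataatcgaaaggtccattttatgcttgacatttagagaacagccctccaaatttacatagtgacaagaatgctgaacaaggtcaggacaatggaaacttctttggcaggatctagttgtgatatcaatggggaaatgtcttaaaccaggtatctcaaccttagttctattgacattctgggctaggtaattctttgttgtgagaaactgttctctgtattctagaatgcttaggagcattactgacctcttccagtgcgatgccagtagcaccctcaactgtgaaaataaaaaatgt
LINC01085, chr4:14111718-14112017, plus strand: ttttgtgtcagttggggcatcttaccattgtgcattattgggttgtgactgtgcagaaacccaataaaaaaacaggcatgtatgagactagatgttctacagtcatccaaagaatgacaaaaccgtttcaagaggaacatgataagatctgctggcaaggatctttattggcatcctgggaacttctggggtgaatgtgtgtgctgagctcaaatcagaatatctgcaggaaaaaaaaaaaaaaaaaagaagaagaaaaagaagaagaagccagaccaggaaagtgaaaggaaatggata
LINC01358, chr1:59020226-59020525, plus strand: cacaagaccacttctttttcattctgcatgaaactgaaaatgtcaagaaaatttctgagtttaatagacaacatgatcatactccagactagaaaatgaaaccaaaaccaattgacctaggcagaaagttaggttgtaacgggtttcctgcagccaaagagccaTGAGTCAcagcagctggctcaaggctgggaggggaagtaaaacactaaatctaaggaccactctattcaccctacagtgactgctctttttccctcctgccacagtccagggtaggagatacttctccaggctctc
LINC01515, chr10:65571175-65571474, plus strand: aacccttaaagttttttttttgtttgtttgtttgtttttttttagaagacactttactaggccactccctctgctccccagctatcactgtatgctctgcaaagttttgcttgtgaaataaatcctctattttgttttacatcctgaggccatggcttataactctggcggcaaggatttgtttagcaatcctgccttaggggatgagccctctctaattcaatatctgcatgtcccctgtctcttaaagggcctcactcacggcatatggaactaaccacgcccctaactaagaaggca
The start used by RefSeq is not always that of GENCODE 29, from which gene positions below are taken. It lay on the first base of a GENCODE transcript for LINC01085 and LINC02392, and 89, 550 and 5370 bases from the nearest one for LINC01358, LINC01515 and LINC01705. For LINC00973 it lay 66492 bases away, so that its promoter here belongs to a longer RefSeq gene model.

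AP-1 letters were also searched in the promoters of the other members. A match stood in 6 of 16 promoters of members that were higher in 4-OHT, in 3 of 23 of those that were lower, in 6 of 54 of those not called and in 7.71% of all 35116 promoters of the same length. TGANTCA reads alike on both strands. The stretches of 31 bases around each match in the higher members show that, apart from LINC00973, the sites read TGAGTCA or TGACTCA, and that LINC01615 and LINC02535 hold a pair each.
LINC00973, chr3:98914369-98914399, plus strand, match 185 bases before the start: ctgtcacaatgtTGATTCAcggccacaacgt
LINC01943, chr2:87459155-87459185, minus strand, match 77 bases before the start: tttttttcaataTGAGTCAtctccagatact
LINC01504, chr9:72305359-72305389, plus strand, match 65 bases before the start: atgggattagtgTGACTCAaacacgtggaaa
LINC00519, chr14:51328379-51328409, minus strand, match 12 bases before the start: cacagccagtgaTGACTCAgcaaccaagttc
LINC01615, chr6:169163190-169163220, minus strand, match 219 bases before the start: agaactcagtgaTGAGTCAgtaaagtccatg
LINC01615, chr6:169163101-169163131, minus strand, match 130 bases before the start: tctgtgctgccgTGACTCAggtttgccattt
LINC02535, chr6:85404964-85404994, minus strand, match 180 bases before the start: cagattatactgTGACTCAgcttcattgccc
LINC02535, chr6:85404811-85404841, minus strand, match 27 bases before the start: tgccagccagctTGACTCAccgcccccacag
The other motifs, none of which holds another, were searched on both strands. They were TGACGTCA (the cAMP response element), CACGTG (the E-box), TTTGAA (the cell cycle homology region) and TATAAA (the TATA box), and they stood in 2, 7, 13 and 11 of the 93 member promoters. Of all promoters 1.85%, 7.26%, 15.2% and 11.5% held them. Of the 16 promoters of higher members 0, 1, 3 and 4 held these motifs in the same order, and of the 23 of lower members 0, 3, 1 and 0. A match is a description of letters and not of binding. The LINC02535 matches lie far upstream of its GENCODE gene (chr6:85387219-85390186, minus strand), so its RefSeq start differs too. Its level was 1.48 against 0.610 TPM (log2 fold change 0.62, limma adjusted p = 0.0386). That call was lost with no filter (0.127), with the replicate block (0.0889), and without 4-OHT replicate 1 (0.0982) or 3 (0.108) or DMSO replicate 1 (0.0780) or 3 (0.101).

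Of the 123 RNAs, 22 were higher and 34 lower in 4-OHT by limma's moderated test across all 15272 rows of at least 1 TPM (Benjamini-Hochberg adjusted p below 0.05). The called share, 45.5%, stood near that of all rows tested, of which 49.6% were called, 19.8% as higher and 29.9% as lower. LINC01705, LINC00973 and LINC02154 had group means of 1.77 to 3.13 TPM in DMSO and 32.7 to 68.0 TPM in 4-OHT, while LINC01085 stood at 10.1 ± 1.06 TPM in DMSO and 0.331 ± 0.278 in 4-OHT. Values below are TPM, and log2 fold changes are differences between group means of log2(TPM + 1), as 4-OHT minus DMSO, which understate the change of low genes.

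The balance of directions depended on scaling between libraries. As deposited, 60.7% of the called members were lower. Under quantile normalization 29 were higher and 23 lower (44.2% lower), and under median-of-ratios scaling 26 were higher and 29 lower. Of all rows called, 60.2% were lower as deposited, 50.1% under quantile normalization and 47.1% under median-of-ratios scaling, so the whole table shifted too. These scalings moved the log2 fold changes of all rows upward by a median of 0.13 and 0.113. The median log2 fold change of the 123 was -0.23, against -0.09 over all rows tested, and it was -0.02 under quantile normalization.

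Changes of at least 1 log2 unit were found in 10 members that were higher and 11 that were lower (8.13% and 8.94%), where 4.22% and 8.21% of all rows tested were called with such changes. Below 5 TPM, 35 of 83 members were called (42.2%, against 34.6% of all rows at that level). At 5 TPM or more 21 of 40 were (52.5%, against 55.4%). In 65 members the groups did not overlap (52.8%, against 59.0% of all rows), with 4-OHT on top in 24 (19.5%, against 23.8%) and DMSO on top in 41 (33.3%, against 35.2%). These include 55 of the 56 that were called. LINC01006 (chromosome 7), picked as the exception among the called, read 1.34, 2.64 and 3.35 TPM in 4-OHT and 7.03, 6.53 and 3.34 in DMSO, so that only replicate 3 of each group met (log2 fold change -0.94, adjusted p = 0.0399). Its call was lost under median-of-ratios scaling (0.0562), quantile normalization (0.114), no filter (0.283), no variance trend (0.0568) and the replicate block (0.0804), and without 4-OHT replicate 1 (0.104) or 2 (0.0699) or DMSO replicate 1 (0.122) or 2 (0.114).

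The threshold on the mean bears on these counts. Of the 56 called members, 7 of the higher and 9 of the lower ones had a mean under 1 TPM in one of the groups and so passed only through the group where they were high. Of all 123 members, called or not, 27 passed through 1 group only. Just inside the threshold were LINC00882 (mean 1.00 TPM), LINC00571 (1.01) and LINC02637 (1.02), and just outside it LINC00578 (0.995), LINC01547 (0.986) and LINC01311 (0.974). Requiring a mean of 1 TPM in either group in place of the overall mean gave 150 members, of which 26 were higher and 40 lower, where 48.9% of the 16130 rows tested under that rule were called.

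**Figure D1:**
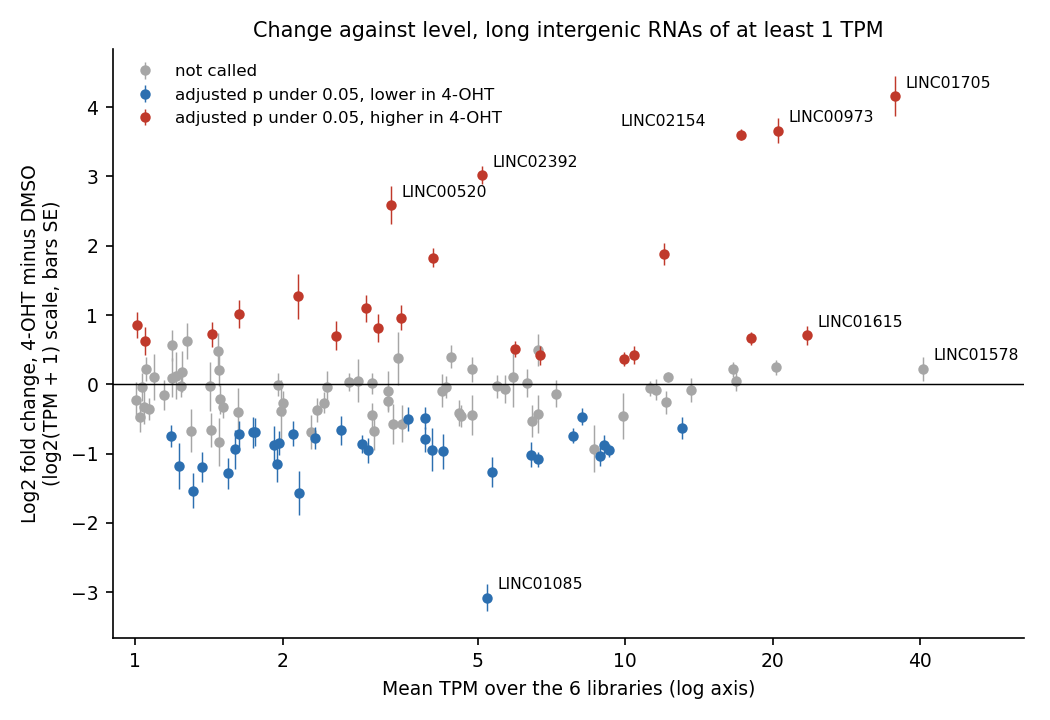
Log2 fold change of log2(TPM + 1) values (4-OHT minus DMSO, bars SE) against mean TPM on a log axis for 121 of the 123 long intergenic RNAs, coloured by call. LINC01705 stands highest at 4.16 and LINC01085 lowest at -3.08, and the called decreases other than LINC01085 lie between -0.47 and -1.57.

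LINC01705 (chromosome 1, 222041705 to 222064763, GRCh38, minus strand, a spliced RNA of 3 exons) showed the largest increase on the log2(TPM + 1) scale. It read 64.8, 73.4 and 65.8 TPM in the 4-OHT libraries and 1.53, 2.68 and 5.18 in DMSO. The groups were far apart, 21.7-fold by their means, although the DMSO libraries spread more than 3-fold among themselves (log2 fold change 4.16, SE 0.292, adjusted p = 3.01e-05). With a mean of 35.6 TPM over all libraries it was the second most abundant member, mainly through its 4-OHT level.

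LINC00973 (chromosome 3, 98981058 to 98983096, plus strand) read 35.9, 40.6 and 39.9 TPM in 4-OHT and 2.11, 3.10 and 1.45 in DMSO. It was 17.5-fold higher (log2 fold change 3.66, SE 0.183, adjusted p = 5.99e-06). LINC02154 (chromosome X, 13266048 to 13303452, minus strand) read 34.1, 31.6 and 32.3 in 4-OHT and 1.72, 1.77 and 1.81 in DMSO. Its replicates lay close together, with SDs of 1.29 and 0.0446 TPM (log2 fold change 3.60, SE 0.0835, adjusted p = 2.42e-07). In both RNAs every 4-OHT library exceeded every DMSO library more than 10-fold.

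Below these in level, LINC02392 (chromosome 12, 90280894 to 90300340) read 9.21, 10.6 and 9.76 TPM in 4-OHT and 0.385, 0.407 and 0.228 in DMSO (log2 fold change 3.02, SE 0.133). LINC00520 (chromosome 14, 55781132 to 55796731) read 5.83, 4.33 and 9.16 in 4-OHT, and in DMSO 0.534 and 0.109 with replicate 1 listed at 0 (log2 fold change 2.59, adjusted p = 0.000269). Both were below 1 TPM in every DMSO library, so they entered the set through their 4-OHT level. The 4-OHT libraries of LINC00520 spread widely, with an SD of 2.47 TPM, but all lay above DMSO.

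LINC01943 (chromosome 2, 87439523 to 87459044) was already present without 4-OHT. It read 23.7, 19.8 and 15.0 TPM in 4-OHT and 4.59, 4.56 and 4.36 in DMSO, 4.33-fold higher (log2 fold change 1.87, adjusted p = 7.62e-05). LINC00942 (chromosome 12, 1500525 to 1504424) read 7.11, 7.07 and 6.43 against 1.46, 1.29 and 0.939 (log2 fold change 1.83, adjusted p = 4.74e-05). In both, no 4-OHT library came near the DMSO values.

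The remaining 3 of the 10 largest increases were under 5 TPM in every library. LINC00519 (chromosome 14) read 4.97, 4.08 and 4.06 TPM against 1.90, 0.932 and 1.81 (log2 fold change 1.10, adjusted p = 0.00293). LINC02204 (chromosome 15) read 1.75, 2.56 and 3.30 against 0.728, 0.722 and 0.709 (log2 fold change 1.02). LINC01504 (chromosome 9) read 3.05, 4.29 and 2.84 against 0.143, 0.889 and 1.71, a wide spread in DMSO (log2 fold change 1.27, adjusted p = 0.0143, or 0.134 with no filter on low values, and 0.00642 to 0.134 over the alternatives).

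LINC01085 (chromosome 4, 14111968 to 14140052, plus strand), which GENCODE lists as a transcribed processed pseudogene, showed the largest decrease. It read 0.0121, 0.456 and 0.525 TPM in 4-OHT and 11.1, 10.2 and 9.01 in DMSO. The DMSO libraries agreed closely while all 4-OHT libraries lay under 1 TPM, 30.5-fold lower by the means (log2 fold change -3.08, SE 0.193, adjusted p = 1.71e-05). The next decrease in size on this scale was -1.57. That gap depends on the scale, since LINC02449 was 14.4-fold lower by the means. With 0.1 TPM added in place of 1 before taking logs, LINC02449 stood at -3.40 and LINC01085 at -4.91.

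LINC01358 (chromosome 1, 58933643 to 59240555) read 0.703, 0.842 and 0.148 TPM in 4-OHT and 1.98, 4.73 and 4.52 in DMSO (log2 fold change -1.57, adjusted p = 0.00504, or 0.0653 with no filter, and 0.00213 to 0.0653 over the alternatives). LINC02449 (chromosome 12) read 0.317 and 0.195 with replicate 1 listed at 0 in 4-OHT, and 3.44, 1.53 and 2.40 in DMSO (log2 fold change -1.53). LINC01515 (chromosome 10) read 0.733, 0.191 and 0.514 against 3.08, 2.86 and 1.88 (log2 fold change -1.29). These RNAs did not reach 1 TPM in any 4-OHT library, and their DMSO level was itself low.

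LINC00968 (chromosome 8) stood higher, at 1.98, 2.31 and 4.01 TPM in 4-OHT and 7.49, 6.82 and 9.42 in DMSO (log2 fold change -1.27, adjusted p = 0.00262). LINC01341 (chromosome 1) read 0.250, 0.529 and 0.518 against 2.70, 2.64 and 1.56 (log2 fold change -1.19). LINC01836 (chromosome 19) read 0.289, 0.971 and 1.29 against 3.68, 3.18 and 2.28 (log2 fold change -1.15, adjusted p = 0.0086, or 0.0808 with no filter, and 0.00841 to 0.0808 over the alternatives). Groups that do not overlap were a condition for being picked among these largest changes.

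LINC01011 (chromosome 6, 2987967 to 2991173) read 0.244, 0.341 and 0.287 TPM in 4-OHT and 3.99, 1.37 and 1.12 in DMSO, where replicate 1 stood apart. Its call (log2 fold change -1.18, adjusted p = 0.0219) was lost without 4-OHT replicate 1 (0.0574), without 4-OHT replicate 3 (0.0539) and with no filter (0.168), over a range of 0.0106 to 0.168. It shares 292 exonic bases with NQO2, a quinone reductase gene on the same strand whose start is 20 bases away, so reads of the pair may not be told apart.

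The last of the 10, LINC00909 and LINC00847, had the highest means of these decreases. LINC00909 (chromosome 18, now named ZNF407-AS1) read 3.88, 4.28 and 3.56 TPM against 9.38, 8.84 and 9.94 (log2 fold change -1.08, SE 0.106, adjusted p = 0.000163). LINC00847 (chromosome 5) read 5.94, 6.21 and 4.32 against 13.5, 11.8 and 11.5 (log2 fold change -1.04, adjusted p = 0.000802). Both were more than 2-fold lower. The coefficients of variation were 9.32% in 4-OHT and 5.87% in DMSO for LINC00909, and 18.6% and 8.70% for LINC00847.

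**Figure D2:**
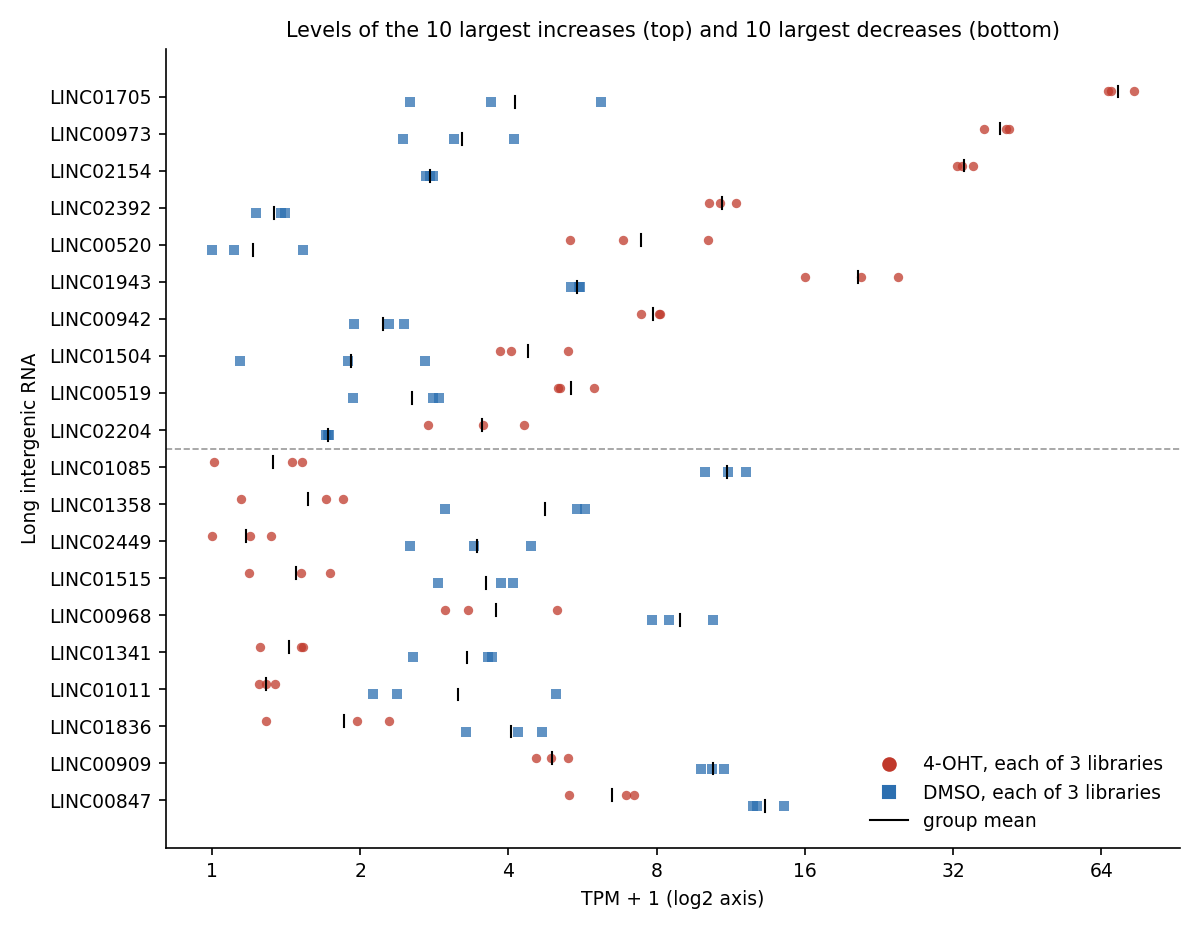
TPM + 1 on a log2 axis in each library for the 10 largest increases (top) and the 10 largest decreases (bottom), with 4-OHT libraries as circles, DMSO libraries as squares and group means as bars. The 20 were picked among called members whose groups do not overlap. The 4-OHT points of LINC01705 lie between 64.8 and 73.4 TPM.

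The other called members moved less. The 22 increases ran from 0.37 to 4.16 log2 units with a median of 0.91, and the 34 decreases from -0.47 to -3.08 with a median of -0.88. Among them, and chosen after its values were seen, LINC02657, which could not be matched to an annotated position, read 21.3, 25.0 and 20.9 TPM against 12.8, 13.5 and 14.9 (log2 fold change 0.66, adjusted p = 0.00119). Of the 22 increases, LINC02657 could not be checked for overlaps or copies. None of the others shared exonic bases with a protein-coding gene or had a copy of at least 95% identity over 50% of its longest transcript elsewhere in the annotation. Of the called decreases, 2 shared exonic bases and 3 had such a copy, against 12 and 12 of the 67 members not called, whose own reads may be mixed with those of other genes.

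**Figure D3:**
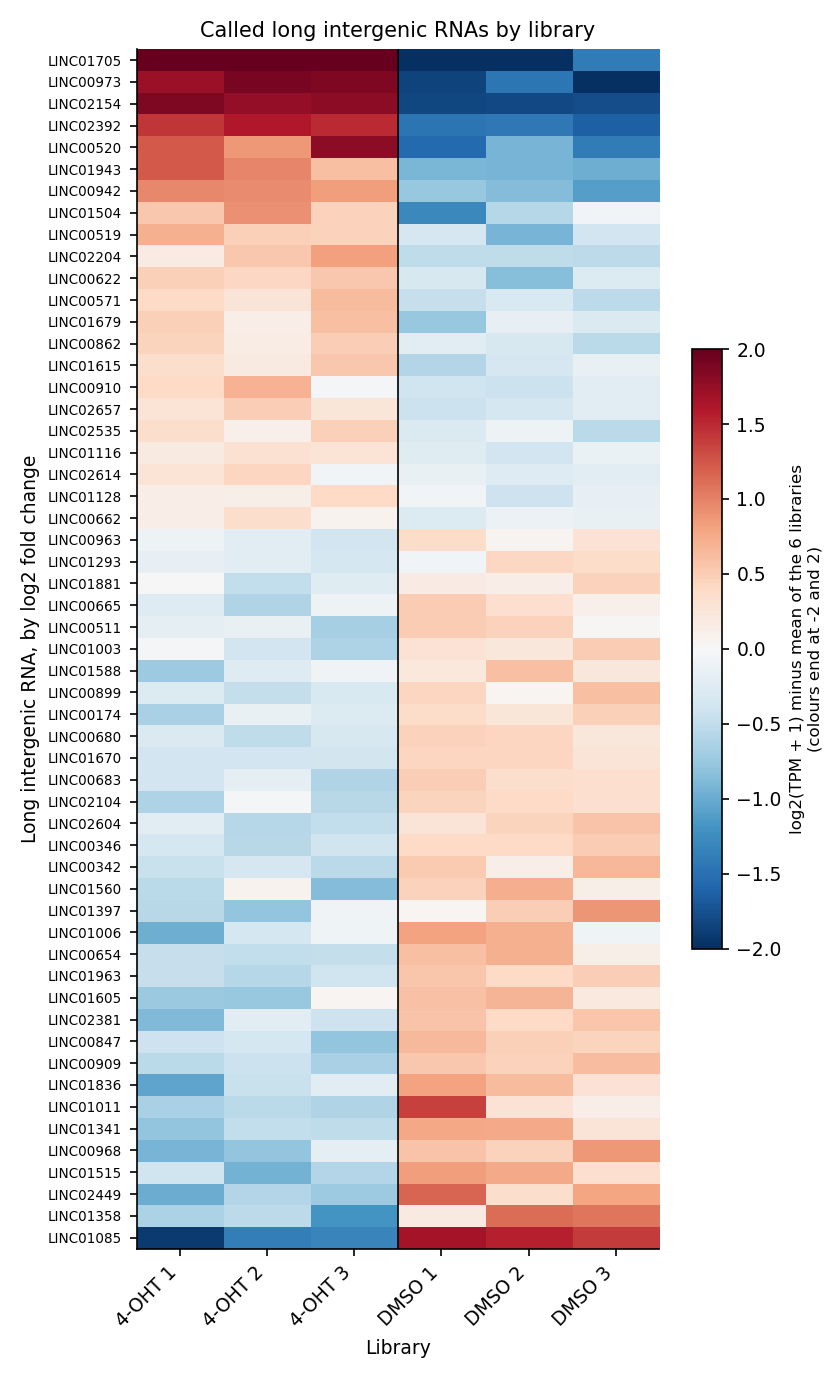
Log2(TPM + 1) of 55 of the 56 called long intergenic RNAs in each library, as the difference from the mean of the 6 libraries, with red above and blue below that mean. The 22 increases stand at the top and 33 of the 34 decreases below them, and the colours of a few rows, such as LINC01011 and LINC01504, differ within a group.

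The members at the highest level were a mixed set. LINC01578, now named CHASERR, a non-coding RNA known to restrain its neighbour CHD2, had the highest mean at 40.5 TPM. It read 43.2, 45.1 and 41.5 TPM in 4-OHT and 32.1, 30.8 and 50.4 in DMSO, where replicate 3 lay above every other library. The difference was not called (log2 fold change 0.23, 95% interval -0.19 to 0.64, adjusted p = 0.322), but without DMSO replicate 3 it was (0.45, adjusted p = 0.00307, the lowest of a range of 0.00307 to 0.775), and it was 0.10 without DMSO replicate 2 and 0.13 without DMSO replicate 1. CHD2, a chromatin remodeller whose start is 17482 bases away, was at 35.4 ± 1.5 against 34.7 ± 4.23 TPM (log2 fold change 0.03, adjusted p = 0.798). GENCODE places 225 exonic bases of LINC01578 in a coding gene on the same strand.

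LINC01615 (chromosome 6, 169158092 to 169162924) followed LINC01705 in level and rose. It read 29.2, 25.8 and 33.2 TPM against 14.8, 17.7 and 20.4 (log2 fold change 0.71, adjusted p = 0.00421, or 0.0589 with no filter, and 0.00206 to 0.0589 over the alternatives). LINC00839 (chromosome 10) read 23.2, 20.5 and 22.4 against 21.2, 18.1 and 16.2, with overlapping groups (log2 fold change 0.25, 95% interval -0.01 to 0.50, adjusted p = 0.0968). It was called under median-of-ratios scaling (0.36, adjusted p = 0.0286), under quantile normalization (0.33, 0.044) and without replicate 1 of DMSO (0.35, 0.0281), over a range of 0.0281 to 0.404.

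Summed over the 123, the members made up 707 ± 15.0 TPM in 4-OHT and 614 ± 12.2 in DMSO. By library the sums were 695, 724 and 702 against 603, 613 and 627 TPM, so the groups did not overlap. LINC01705, LINC00973, LINC02154, LINC02392 and LINC00520 together gave 150, 161 and 157 TPM in 4-OHT and 5.74, 8.49 and 8.77 in DMSO. Without these RNAs, which were picked for their increase, the remaining members summed lower in 4-OHT, at 551 ± 10.5 against 607 ± 10.8 TPM. By library those sums were 545, 563 and 545 against 597, 604 and 618 TPM. Leaving out RNAs picked for their increase, and no decreases, lowers the 4-OHT sum by choice. The direction of the remainder is therefore no separate result. Its sums are given as deposited only, without the other scalings. In bulk samples fewer cells with an RNA and less of it per cell cannot be told apart.

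A list of 16 LINC symbols studied in growing tumour cells was looked up as a group. Only 8 were members, and of these LINC00520, LINC00973 and LINC01116 rose, LINC00511 and LINC00346 fell, and 3 were not called (49.6% of all rows were called, 19.8% as higher and 29.9% as lower, so 5 of 8 is no result about the list). LINC01116 read 6.78, 7.47 and 7.24 TPM against 4.79, 4.22 and 5.21 (log2 fold change 0.51, adjusted p = 0.00709). LINC00346, now named PRECSIT, read 1.93, 1.55 and 1.84 against 3.92, 3.92 and 4.28, the groups lying well apart (log2 fold change -0.86, adjusted p = 0.00133). LINC00511 read 2.06, 2.15 and 1.21 against 3.99, 3.83 and 2.54 (log2 fold change -0.66, adjusted p = 0.0343). The call on LINC00511 was lost under median-of-ratios scaling (0.0562), quantile normalization (0.14), no filter (0.189) and without 4-OHT replicate 1 (0.0515) or 3 (0.0894) or DMSO replicate 1 (0.106) or 2 (0.102), over a range of 0.0177 to 0.189.

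The 3 not called were LINC00460, LINC00467 and LINC01503. LINC00460 read 1.53, 1.51 and 2.15 TPM against 0.240, 1.08 and 1.12 (log2 fold change 0.62, 95% interval 0.02 to 1.23, adjusted p = 0.0814) and was called under quantile normalization (0.80, adjusted p = 0.0343, the lowest of a range up to 0.348). Without DMSO replicate 1, its lowest library, the log2 fold change was 0.37 (adjusted p = 0.175). LINC00467 read 4.41, 3.11 and 3.69 against 5.11, 6.67 and 4.75 (log2 fold change -0.46, adjusted p = 0.0519), and was called without 4-OHT replicate 1 (-0.56, 0.0411) and with no variance trend (0.0493), over a range of 0.0411 to 0.36. LINC01503 read 2.96, 0.680 and 0.793 against 0.861, 1.64 and 1.58, with replicate 1 of 4-OHT alone above the rest (log2 fold change -0.03, 95% interval -0.87 to 0.81). Of the other 8 symbols, LINC00941 and LINC01133 were listed at 0 in every library, LINC00958, LINC01234 and LINC00707 had means below 1 TPM, and LINC00152, LINC00657 and LINC00673 are not rows of the table under those names. None of the 5 listed LINC symbols later given a small protein is a row of the table under its LINC name.

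By position, 122 of the 123 could be placed, on 22 chromosomes, and called increases lay on 13 and called decreases on 19 of these. GENCODE types 89 as lincRNA, 14 as processed transcripts and 10 as transcribed pseudogenes of several kinds. The median longest transcript was 1570 bases in the increases, 2359 in the decreases and 2212 in those not called, with a median of 2, 2 and 3 exons. Pairs of members within 100 kb of each other were few. All 4 were chosen after their values were seen. LINC01128 (log2 fold change 0.42, adjusted p = 0.0409) overlaps LINC00115 (-0.04, 95% interval -0.52 to 0.44). The LINC01128 call was lost with no filter (0.188) and without 4-OHT replicate 1 (0.0628), 2 (0.0580) or 3 (0.121) or DMSO replicate 2 (0.115) or 3 (0.0759). LINC01291 (-0.57, 95% interval -1.21 to 0.07) lies 1840 bases from LINC01293 (-0.49, adjusted p = 0.0392). The LINC01293 call was lost under median-of-ratios scaling (0.0784), quantile normalization (0.265), no filter (0.168) and the replicate block (0.0732), and without 4-OHT replicate 1 (0.0640), 2 (0.0794) or 3 (0.104) or DMSO replicate 2 (0.122) or 3 (0.115).

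The nearest protein-coding gene that was itself tested lay a median of 65.6 kb away, start to start, and 67 of the 122 nearest genes were called (49.6% of all rows were). Called increases had a called neighbour in 16 cases, of which 12 were higher and 4 lower. Called decreases had one in 22 cases, of which 17 were lower and 5 higher. Together 29 of 38 such pairs (76.3%) went the same way. Among 3706 pairs of a coding gene and its nearest coding gene that were both called, 61.6% did. These coding pairs were not matched to the members in distance or level. With GENCODE start sites within 50 kb, 9 of 11 pairs went the same way, and no share of coding pairs at that distance is given here. Both counts include LINC01011 and NQO2, which share exonic bases. Across the 122 pairs the log2 fold changes had a Pearson correlation of 0.12 and a Spearman correlation of 0.19, as a description across genes that share the same 6 libraries.

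Some pairs moved together. DCBLD2, a membrane receptor-like protein gene 79369 bases from LINC00973 by GENCODE starts, rose from 187 ± 3.51 to 592 ± 18.9 TPM (log2 fold change 1.66, adjusted p = 2.42e-07). The RefSeq promoter of LINC00973 printed above (98914316 to 98914615) lies nearer to DCBLD2 (98795941 to 98901689). From that start the pair would lie within 50 kb. ZFAND5, a zinc finger protein gene 59805 bases from LINC01504, rose from 106 ± 6.17 to 419 ± 39.8 (log2 fold change 1.96). The Wnt ligand gene WNT5B, 29366 bases from LINC00942, was at 275 ± 13.5 against 212 ± 5.36 TPM (log2 fold change 0.37, adjusted p = 0.000603). UACA, 176987 bases from LINC02204, rose by 0.53. KTN1, 237659 bases from LINC00520, rose by 0.16, a call lost without a variance trend (adjusted p = 0.0561). Among the decreases, JUN, the AP-1 subunit gene 149316 bases from LINC01358, stood at 80.7 ± 2.56 against 107 ± 5.39 TPM (log2 fold change -0.41, adjusted p = 0.000714). SCCPDH beside LINC01341 (-0.82), MGAT1, a glycosyltransferase gene beside LINC00847 (-0.33), NQO2 beside LINC01011 (-0.49) and PTBP1, a splicing regulator gene beside LINC01836 (-0.20), fell as well. The NQO2 call was lost under quantile normalization (adjusted p = 0.064) and with no filter (0.0939), and that of PTBP1 under median-of-ratios scaling (0.227) and with no filter (0.0722).

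Others parted. TMSB4X, which encodes an actin-monomer binder, is the nearest tested gene to LINC02154 at 328344 bases and fell from 5889 ± 17.0 to 2127 ± 81.4 TPM (log2 fold change -1.47), while LINC02154 rose. ATP2B1, a plasma-membrane calcium pump gene 571594 bases from LINC02392, fell (-0.94). NECAP1, 158476 bases from LINC02449, and JMJD1C, the nearest tested gene to LINC01515 although 2048488 bases away, rose (0.64 and 0.86) while these LINC RNAs fell. DUSP10, a phosphatase gene for stress kinases and the nearest to LINC01705 at 322587 bases, was at 33.1 ± 2.97 against 26.4 ± 7.86 TPM (log2 fold change 0.36, adjusted p = 0.202, and a log2 fold change of 0.098 without DMSO replicate 2, the lowest library). The neighbours of LINC01943 (PLGLB2, -0.28), LINC00519 (TMX1, -0.04), LINC01085 (BOD1L1, 0.15), LINC00968 (PENK, -0.03) and LINC00909 (ZNF407, 0.08) were not called.

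LINC00899 (chromosome 22), picked with its values known, also parted from its neighbour. It was at 1.34 ± 0.172 against 2.86 ± 0.723 TPM (log2 fold change -0.71, adjusted p = 0.0163), while the Wnt ligand gene WNT7B, 67724 bases away, was at 20.1 ± 0.869 against 0.712 ± 0.203 (log2 fold change 3.63). The LINC00899 call was lost under quantile normalization (0.0621), with no filter (0.0797), without replicate 2 of 4-OHT (0.05003) and without replicate 1 (0.0524) or 3 (0.0540) of DMSO.

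**Figure D4:**
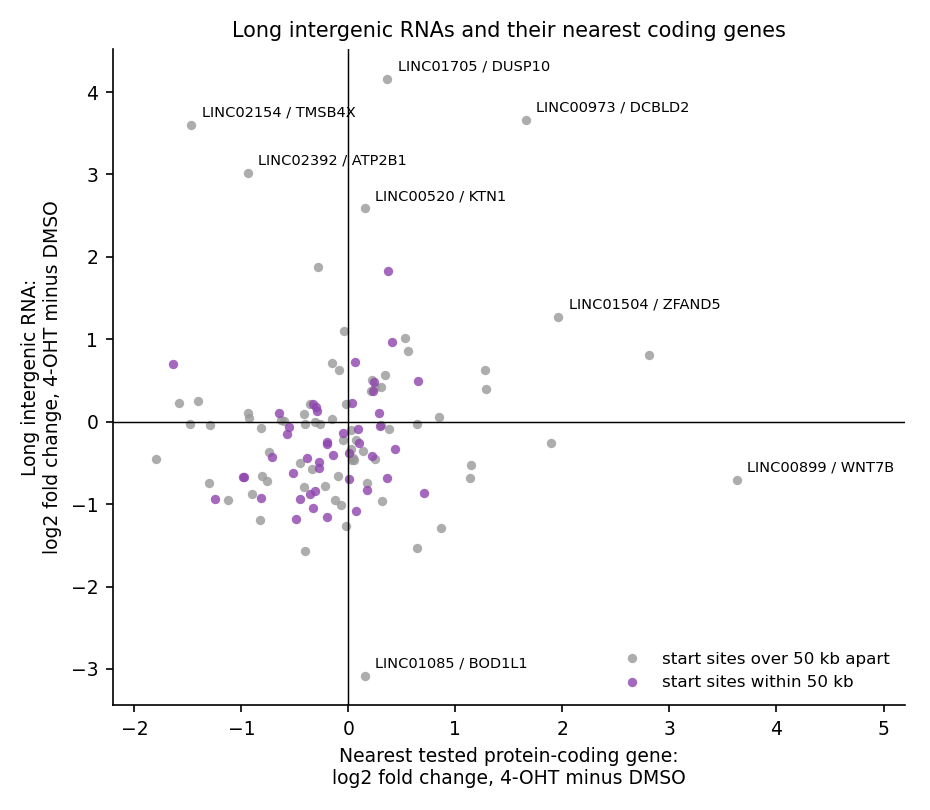
Log2 fold change of 120 long intergenic RNAs against that of their nearest tested protein-coding gene (both 4-OHT minus DMSO, from log2(TPM + 1) values), with pairs whose GENCODE start sites lie within 50 kb in purple. LINC00973 and DCBLD2 stand high together at 3.66 and 1.66, while LINC02154 and TMSB4X lie apart at 3.60 and -1.47.

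The 67 members not called had a median difference of 0.24 log2 units in either direction, a median SE of 0.217, and a range of -0.93 to 0.62. In 10 of them the groups did not overlap, and 10 had an unadjusted p below 0.05. The members were noisier than the table as a whole. Their median coefficient of variation was 21.5% in 4-OHT and 21.0% in DMSO, against 9.38% and 8.74% over all rows tested, and their median level was 3.07 against 15.5 TPM. A difference of the median size in those not called was close to its SE and not detectable with this spread.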

How the data were processed

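Bulk RNA-seq of 6 libraries, 3 labelled 4-OHT and 3 DMSO, was deposited as a table of 59050 rows by gene symbol in TPM, made by the authors. The submitters' processing notes name GRCh38 and the programs Trim Galore (0.6.6), STAR and StringTie. The sources used here give no gene annotation, strand setting or scaling between libraries. Of all values 1 lay below 0 and was set to 0. Depth is unknown for TPM, so no interval for counting error was computed.

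Rows with a mean of at least 1 TPM were tested on log2(TPM + 1) by limma (3.58.1, under R 4.3.3), with eBayes fitting a variance trend and no covariate, and with 2-sided Benjamini-Hochberg adjustment over the 15272 rows and a threshold of 0.05. The test was checked on simulated data. Members, lists and tests were chosen with earlier results of these data known.

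Described singly are the 10 largest increases and 10 largest decreases among called members whose groups do not overlap, the 5 highest mean levels, the 3 rows on each side of the threshold, 2 fixed lists, and the nearest coding genes of the largest changes. Others are marked as picked with their values known. In all 2 members, in a region shared by the sex chromosomes, are counted but not described. Positions are from GENCODE 29 (116 members matched by symbol, 6 through a table of gene IDs). Copies were searched with blastn 2.17.0, and tables were handled in Python 3.11.15. Alternatives changed the scaling, filter, pseudocount, variance trend, replicate block or membership rule, or left out a library.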

Additional observations from a re-analysis of the deposited data

How the results depend on the processing

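No called member changed direction under any of 16 alternatives, and 31 of the 56 kept their call in each one that tested them (14 higher, 17 lower). With no filter 31 members were called (14 higher, 17 lower), where 9.32% of all rows were, and testing only rows of at least 5 TPM left 40 members, of which 21 were called (11 higher, 10 lower), where 56.3% of all rows were. Apart from the setting with no filter, 37 kept their call throughout. Leaving out a library gave 46 to 48 called members (18 to 21 higher, 27 to 30 lower), where 43.6% to 44.7% of all rows were called. The summed level was 728 TPM in 4-OHT and 582 in DMSO under median-of-ratios scaling and 751 and 569 under quantile normalization. With neighbours limited to 50 kb, 9 pairs moved the same way, since fewer pairs remain.

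The labels do not state that replicate numbers pair the samples. Deviations of same-numbered libraries correlated at 0.047, 0.005 and 0.007, which shows no sign of pairing but cannot show that there was none. With the replicate block 55 members were called (21 higher, 34 lower; 46.3% of all rows), 50 of them among the 56. Signs turned only for values that were not called. LINC01503 was at 0.038 (median-of-ratios), 0.14 (quantile) and -0.43 to 0.19 with a library left out. PENK was at 0.067 and 0.23 under these scalings and -0.27 to 0.15 with a library left out. TMX1 was at 0.079 under median-of-ratios scaling, and ZNF407 at -0.0086 to 0.17 with a library left out. The cause was not tested. With depth unknown, low values cannot be told from sampling noise.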
